A study of Mus musculus with 6 samples.

Results

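Matricellular and elastic matrix proteins were followed at the transcript level through 10 genes taken by name from the deposited count table: Postn, Sparc, Spp1, Tnc, Ccn1, Ccn2, Fn1, Fbn1, Eln and Dcn. The table lists 57010 genes, each of the 10 names matched 1 row, and all 10 were among the 14799 genes with enough counts to be tested. The samples were 6 RNA-seq libraries of primary neonatal mouse cardiomyocytes (NMCMs), isolated from newborn C57BL/6 hearts and kept under hypoxia (HO). Of these, 3 received vehicle (HO + Vehicle, V1 to V3) and 3 received the plant sterol β-sitosterol (HO + β-SITO, T4 to T6). The dose and the time under hypoxia of these libraries were not given in the sources used here, and normoxic cells were not analysed here. The cultures were separated from cardiac fibroblasts by adhesion only, so other heart cells can remain in them.

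Matricellular proteins are secreted into the extracellular matrix and signal to cells through integrins and other receptors rather than bearing load. Their transcripts are typically abundant in the developing heart, low in the healthy adult heart and raised again after infarction. Elastic fibres are built differently, with elastin deposited on a scaffold of fibrillin microfibrils and cross-linked by lysyl oxidases. Fibronectin is the adhesive glycoprotein on which much of the other matrix is assembled, and decorin is a small proteoglycan that coats collagen fibrils and binds TGF-β.

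The libraries held 16694734 to 18460522 counts. The label was checked against marker lists, and the cardiomyocyte list was present in every library, with Myh6, the main cardiac myosin, at 1726 to 3268 CPM (counts normalised to library size, with edgeR's TMM factors of 0.945 to 1.06). Fibroblast markers were also high, with Col3a1, a fibrillar collagen, at 10221 to 19173 CPM, so the libraries hold transcripts of both cell types. In bulk RNA, fewer cells of a type and less RNA per cell cannot be told apart. The library T4 stood apart, with a summed cardiomyocyte marker level of 6283 CPM against 10691 in T5 and 10882 in T6, and values without it are given where they matter. All names of HO + β-SITO libraries carry a suffix that those of HO + Vehicle lack, so the treatment cannot be told apart from a possible separate preparation. Nothing in the labels says that the libraries came from separate cultures, so the p-values measure the spread between these libraries, which may be technical.

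Ccn2, Ccn1 and Eln rose and Tnc fell in the HO + β-SITO group. A gene was called where it differed by more than 2-fold and edgeR's quasi-likelihood test put its adjusted p below 0.05, which is the study's own threshold. By this rule 3 of the 10 genes were called higher, against 12.8% of all genes tested, and 1 was called lower, against 10.1%. The other 6 were not called, and 5 of them had an adjusted p under 0.05 with a smaller change. In all, 9 of the 10 had an adjusted p under 0.05, where 66.8% of all genes tested did, and the groups did not overlap for 8 of the 10, against 70.5% of all genes. The shares are therefore to be read against a comparison in which most genes moved. The median log2 fold change of the 10 genes was 0.37, and that of all genes tested was -0.01. Together the 10 genes took between 2.32% and 2.44% of all raw counts in V1 to V3 and between 3.59% and 3.69% in T4 to T6. The TMM factors, which these shares leave out, were 0.945 to 0.956 in V1 to V3 and 1.05 to 1.06 in T4 to T6. The raw shares therefore rose more than the CPM values did. Eln, Sparc and Fn1 held most of these counts, with Sparc at 0.554% to 0.565% and then 0.904% to 0.925%.

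**Figure D1:**
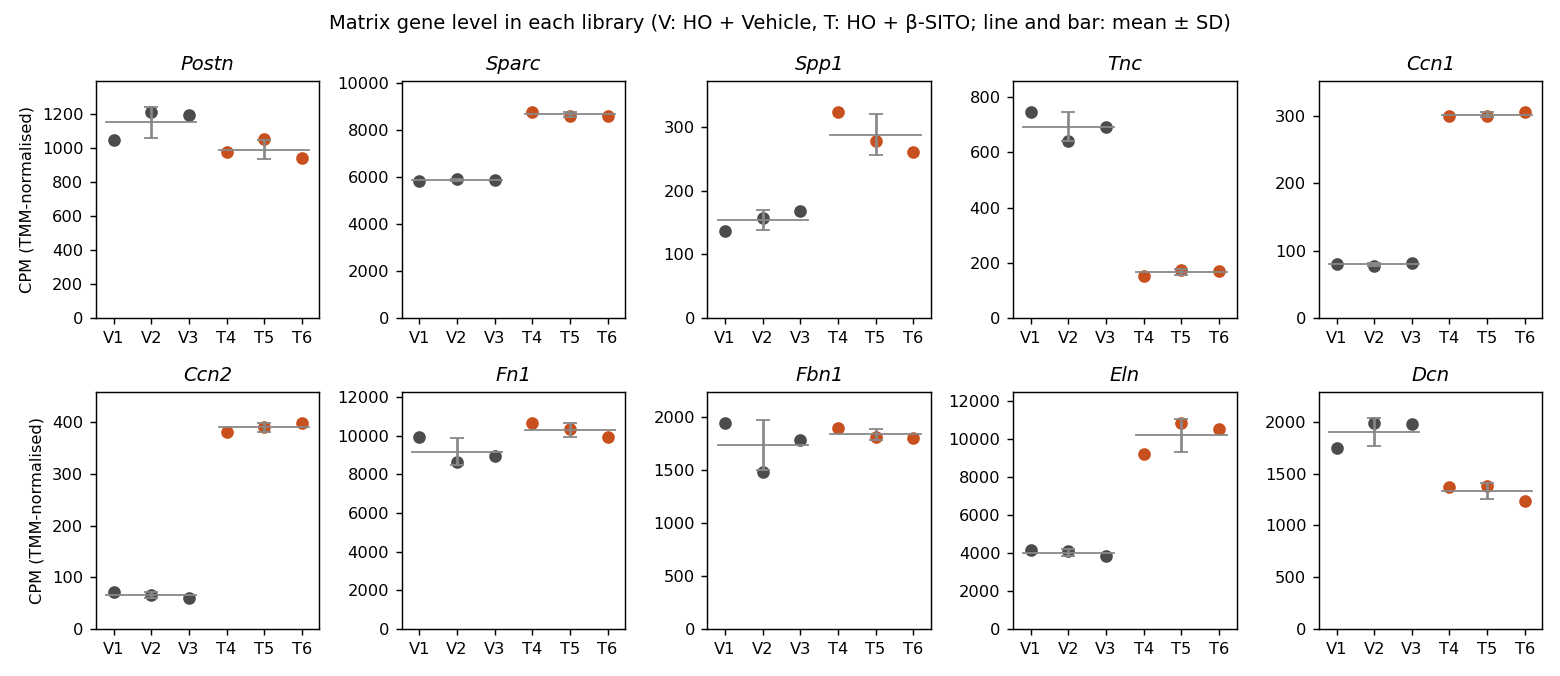
Each panel plots the level of 1 gene in CPM (vertical axis, from 0) in each of the 6 libraries (horizontal axis), with grey lines and bars for the mean ± SD of each group. The HO + β-SITO libraries sit above all HO + Vehicle libraries for Ccn2, Ccn1, Eln, Spp1, Sparc and Fn1, below them for Tnc and Dcn, and overlap them for Postn and Fbn1.

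The CCN proteins are small secreted regulators of adhesion and repair, and their genes are known to respond rapidly to growth factors, TGF-β, mechanical load and YAP, a coactivator that acts through TEAD factors. Ccn2, also known as connective tissue growth factor (ENSMUSG00000019997, chromosome 10 from 24471340 to 24474581, plus strand, build GRCm39), changed most among the 10. It stood at 71.3, 65.6 and 60.7 CPM in V1 to V3 and at 381, 390.1 and 399 CPM in T4 to T6. Every HO + β-SITO library was thus far above every HO + Vehicle library, and the spread within each group was small. The mean was 65.9 ± 5.32 CPM against 390.2 ± 9.13 CPM (SD, n = 3), a rise of 5.92-fold (log2 fold change 2.57, SE 0.07; adjusted p = 3.17e-14 in the edgeR quasi-likelihood test).

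Ccn1, also known as CYR61 (ENSMUSG00000028195, chromosome 3 from 145352731 to 145355736, minus strand), encodes the close relative of CCN2. It stood at 80.3, 77.7 and 81.4 CPM in V1 to V3 and at 299, 299.8 and 306 CPM in T4 to T6. The libraries of a group lay within a few CPM of each other and the groups were widely separated. The rise was 3.78-fold (79.8 ± 1.91 against 302 ± 3.41 CPM, SD, n = 3; log2 fold change 1.92, SE 0.06; adjusted p = 1.20e-13 in the edgeR quasi-likelihood test). Ccn2 counts per Ccn1 count, a ratio within each library that no scaling touches, went from 0.826 ± 0.0729 to 1.29 ± 0.0185 (SD, n = 3). Ccn2 was thus the less counted of the pair in all HO + Vehicle libraries and the more counted in all HO + β-SITO libraries.

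Tenascin-C, encoded by Tnc (ENSMUSG00000028364, chromosome 4 from 63878022 to 63965252, minus strand), is a large matricellular protein that loosens cell adhesion and marks injured and inflamed myocardium. Tnc was the only gene of the 10 that was called lower. It stood at 747, 641 and 691 CPM in V1 to V3 and at 154, 175 and 171 CPM in T4 to T6. The highest HO + β-SITO library lay well below the lowest HO + Vehicle library. The mean went from 693 ± 52.6 to 167 ± 11.2 CPM (SD, n = 3), which is 4.15-fold lower (log2 fold change -2.05, SE 0.07; adjusted p = 1.04e-12 in the edgeR quasi-likelihood test). Tnc counts per count of Fn1, whose protein tenascin-C binds, were 0.0756 ± 0.00161 under vehicle and 0.0162 ± 0.00153 under β-SITO (SD, n = 3).

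Sequence upstream of the start site is shown for Ccn1 and Tnc, the called genes of opposite direction for which a RefSeq promoter window was matched. Windows were matched for 6 of the 10 genes (Ccn1, Tnc, Spp1, Postn, Sparc and Fbn1), while Ccn2, Eln, Fn1 and Dcn were not analysed here. The 250 bases before each annotated start were searched on both strands for the TEAD core GGAATG, the AP-1 motif TGANTCA, the NF-κB motif and the TATA box TATAAA. Capitals mark the matches. The Ccn1 window (GRCm38.p6, chr3:145649986-145650235, minus strand) holds the TEAD core as its reverse complement CATTCC, from 103 to 98 bases before the start, and a TATA box from 25 to 20 bases before it. The Tnc window (GRCm38.p6, chr4:64047016-64047265, minus strand, the outermost of its matched starts) holds TATAAA from 126 to 121 bases before the start and none of the other 3 motifs.
Ccn1: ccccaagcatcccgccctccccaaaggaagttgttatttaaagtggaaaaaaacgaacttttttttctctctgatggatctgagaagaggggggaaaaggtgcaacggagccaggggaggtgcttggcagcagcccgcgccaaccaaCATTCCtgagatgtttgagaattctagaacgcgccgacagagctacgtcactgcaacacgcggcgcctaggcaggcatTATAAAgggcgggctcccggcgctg
Tnc: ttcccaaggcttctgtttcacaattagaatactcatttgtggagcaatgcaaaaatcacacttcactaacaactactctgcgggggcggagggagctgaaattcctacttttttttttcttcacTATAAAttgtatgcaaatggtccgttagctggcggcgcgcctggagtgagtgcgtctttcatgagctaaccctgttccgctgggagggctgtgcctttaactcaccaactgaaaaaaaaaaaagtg
Among all 32851 RefSeq windows of this length, 12.6% hold the TEAD core, 6.75% the AP-1 motif, 17.6% the NF-κB motif and 12.4% TATAAA. Among the other windows, that of the other Tnc start overlaps the one shown and holds the same TATAAA, from 205 to 200 bases before its own start. TATAAA was also found in 1 of those of Spp1 and of Postn, and the NF-κB letters in the same window of Postn. None of the 4 motifs was found for Sparc and Fbn1. A match is a description of letters and does not show that a factor binds there.

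Elastin, encoded by Eln (ENSMUSG00000029675, chromosome 5 from 134731447 to 134776177, minus strand), is the extensible core of the elastic fibre. It stood at 4155, 4086 and 3818 CPM in V1 to V3 and at 9219.8, 10869.7 and 10528 CPM in T4 to T6. T4 was the lowest of its group and still far above every HO + Vehicle library. The rise was 2.54-fold (4019.8 ± 178 against 10206 ± 871 CPM, SD, n = 3; log2 fold change 1.34, SE 0.07; adjusted p = 2.20e-10 in the edgeR quasi-likelihood test), and the log2 fold change was 1.41 without T4. Eln alone took 0.361% to 0.393% of the raw counts in V1 to V3 and 0.972% to 1.14% in T4 to T6, without the TMM factors.

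Fibrillin-1, encoded by Fbn1 (ENSMUSG00000027204, chromosome 2 from 125142514 to 125349913, minus strand), forms the microfibrils on which elastin is laid down. Fbn1 stood at 1949, 1484 and 1782 CPM in V1 to V3 and at 1894, 1814 and 1807 CPM in T4 to T6. All HO + β-SITO values lay within the range of the HO + Vehicle libraries. The log2 fold change was 0.08 with a 95% interval from -0.10 to 0.26 (adjusted p = 0.405 in the edgeR quasi-likelihood test), which covers 0. Eln counts per Fbn1 count went from 2.34 ± 0.356 to 5.56 ± 0.607 (SD, n = 3), without overlap.

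Among the rest, Spp1, Sparc, Dcn, Fn1 and Postn had changes of less than 2-fold. Osteopontin, encoded by Spp1 (ENSMUSG00000029304, chromosome 5 from 104582984 to 104588916, plus strand), is a secreted integrin and CD44 ligand made by macrophages and activated fibroblasts. Spp1 stood at 138, 157 and 167 CPM in V1 to V3 and at 323, 278 and 261 CPM in T4 to T6. The groups did not overlap, and T4 was the highest library. The level was 1.87-fold higher (154 ± 15.2 against 288 ± 32.2 CPM, SD, n = 3; adjusted p = 1.58e-07 in the edgeR quasi-likelihood test), just below the threshold of 2-fold, with a 95% interval from 1.65-fold to 2.12-fold. With library size only or upper quartile scaling the log2 fold change became 1.05 or 1.04 and Spp1 was called higher. Without T4 it was 0.81.

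SPARC, or osteonectin, binds collagen and assists its assembly into fibrils. Sparc (ENSMUSG00000018593, chromosome 11 from 55285326 to 55314009, minus strand) stood at 5849, 5909 and 5871 CPM in V1 to V3 and at 8774, 8623 and 8615 CPM in T4 to T6. No other gene of the 10 repeated as closely between libraries, with a coefficient of variation of 0.520% and 1.03% in the groups. The level was 1.48-fold higher in the HO + β-SITO group (5877 ± 30.6 against 8671 ± 89.5 CPM, SD, n = 3; adjusted p = 4.79e-07 in the edgeR quasi-likelihood test).

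Decorin went the other way. Dcn (ENSMUSG00000019929, chromosome 10 from 97315471 to 97354005, plus strand) stood at 1751, 1993 and 1978 CPM in V1 to V3 and at 1373, 1381 and 1241 CPM in T4 to T6, without overlap. The mean was 1.43-fold lower in the HO + β-SITO group (1907 ± 135 against 1332 ± 78.9 CPM, SD, n = 3; adjusted p = 7.99e-06 in the edgeR quasi-likelihood test). Biglycan (Bgn), the closest relative of decorin, had a log2 fold change of 0.10 (adjusted p = 0.136 in the edgeR quasi-likelihood test), and Dcn counts per Bgn count went from 0.325 ± 0.0288 to 0.211 ± 0.00959 (SD, n = 3).

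Fibronectin and periostin had the smallest differences after Fbn1. Fn1 (ENSMUSG00000026193, chromosome 1 from 71624679 to 71692359, minus strand) stood at 9949.8, 8635 and 8929 CPM in V1 to V3 and at 10679.8, 10335 and 9958 CPM in T4 to T6. The lowest HO + β-SITO library was barely above the highest HO + Vehicle library. Its log2 fold change of 0.17 had an adjusted p of 0.0377 (edgeR's quasi-likelihood test) that lay above 0.05 without V2 (0.130), V3 (0.0771), T5 (0.0509) or T6 (0.0550). Periostin, encoded by Postn (ENSMUSG00000027750, chromosome 3 from 54268530 to 54298458, plus strand), is a matricellular protein best known as a mark of activated cardiac fibroblasts. Postn stood at 1048, 1212 and 1194 CPM in V1 to V3 and at 975, 1051 and 944 CPM in T4 to T6, so that V1 lay within the range of the other group. Its log2 fold change of -0.22 had an adjusted p of 0.0116 (edgeR's quasi-likelihood test) that lay above 0.05 without V2 (0.0547), V3 (0.0899) or T6 (0.0896), with library size only (0.388) and with upper quartile scaling (0.356). For single genes, 3 libraries against 3 allow an exact two-sided permutation p of 0.1 at the smallest. That value was reached by the 8 genes without overlap, and the exact permutation p was 0.2 for Postn and 0.7 for Fbn1.

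**Figure D2:**
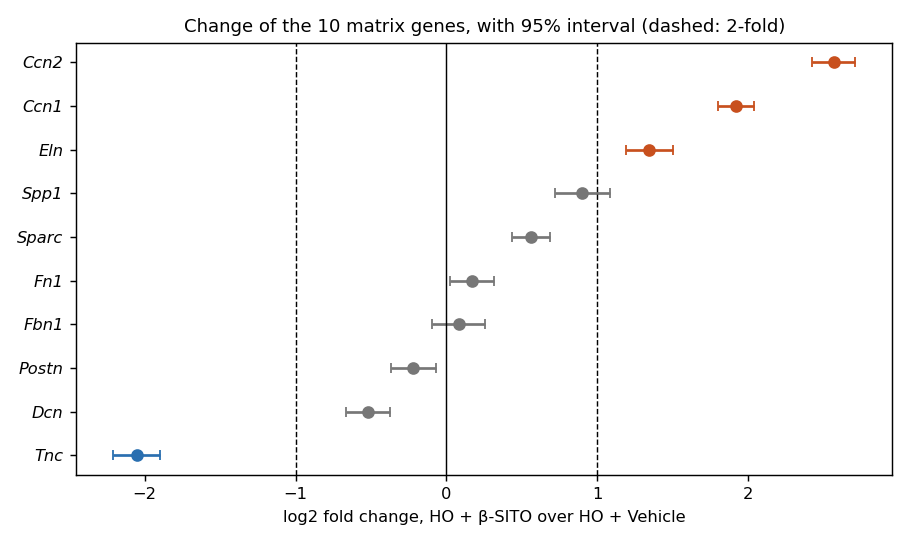
The horizontal axis gives the log2 fold change of each gene, HO + β-SITO over HO + Vehicle, with its 95% interval, and dashed lines mark a 2-fold change. Ccn2, Ccn1 and Eln (orange) lie above the upper line and Tnc (blue) below the lower line, while the interval of Spp1 crosses the upper line and that of Fbn1 crosses 0.

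Divided by exon length, levels can be compared roughly between genes. In the HO + Vehicle group Sparc was the highest at 1551 ± 8.07 CPM per kb, followed by Fn1 (785 ± 59.0), Eln (496 ± 22.0) and Dcn (327 ± 23.2). Below them came Fbn1 (143 ± 19.4), Postn (132 ± 10.3), Spp1 (93.4 ± 9.20), Tnc (89.1 ± 6.77), Ccn1 (39.5 ± 0.948) and Ccn2 (23.0 ± 1.86), all as SD of 3 libraries. Neighbours in this order did not overlap, other than Fbn1 with Postn and Spp1 with Tnc. In the HO + β-SITO group Sparc stayed first at 2289 ± 23.6 CPM per kb, Eln (1260.3 ± 108) passed Fn1 (884 ± 30.9), and Tnc became the lowest at 21.5 ± 1.44. Ccn1 (149 ± 1.69) and Ccn2 (136 ± 3.19) moved from the bottom of the order to above Postn (114 ± 6.36), and of all neighbours in this group only Fbn1 and Ccn1 overlapped. Each length is the union of all annotated exons of a gene, minor transcript forms included, in an annotation of the earlier mouse build. Values per kb are therefore approximate, and a gene whose main transcript is shorter than this union is placed too low. The place of Postn (8702 bases) below Ccn1 and Ccn2 thus depends on the length used. So do the order of Eln (8098 bases) and Fn1 (11685 bases) in either group and the place of Dcn (5838 bases). Overlap between neighbours reflects the spread between libraries and not the error of the lengths.

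**Figure D3:**
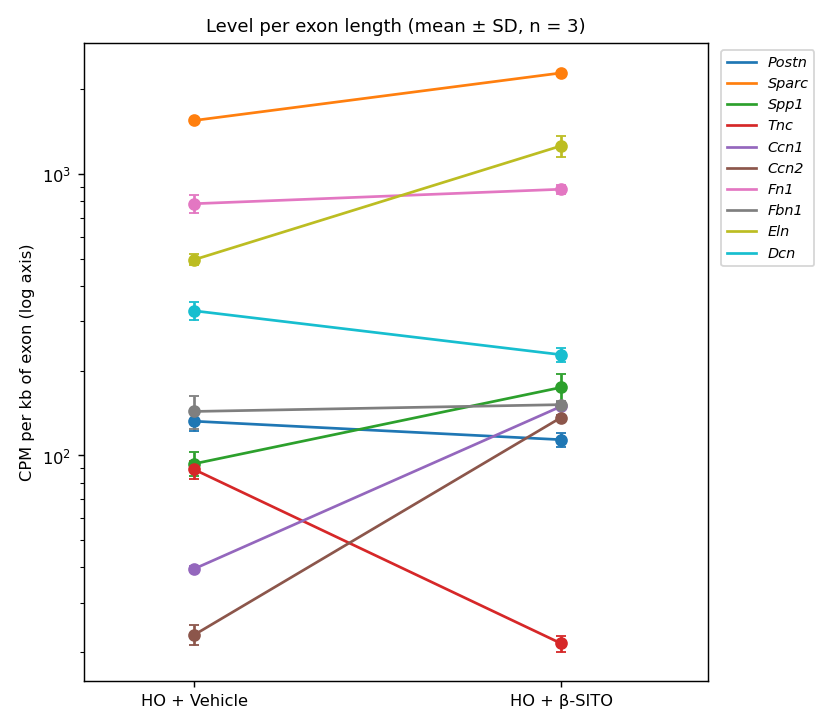
The vertical axis (log scale) gives the mean level of each gene in CPM per kb of exon ± SD over 3 libraries, and lines join the HO + Vehicle and HO + β-SITO groups. The lines of Ccn1 and Ccn2 climb steeply from the bottom, Eln crosses Fn1, and Tnc drops from 89.1 to 21.5 CPM per kb.

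Relatives of the matricellular genes went in both directions. Of a list of 19, 16 were tested, 7 were called higher and 2 lower, with a median log2 fold change of 0.81. The called genes include Comp (0.481 to 2.46 CPM) and Tnr (0.752 to 0.322 CPM), named here because their counts were very low. Of all genes tested, 12.8% were called higher and 10.1% lower. Sparcl1, the closest relative of SPARC, rose from 21.1 ± 0.718 to 110.3 ± 5.82 CPM (SD, n = 3; log2 fold change 2.38). In the CCN family Ccn5, which lacks the C-terminal domain of its relatives, rose from 80.0 ± 5.30 to 384 ± 14.5 CPM (log2 fold change 2.26), while Ccn3 (0.72) and Ccn4 (0.19) were not called. Among thrombospondins, Thbs2 rose (1.75), Thbs4 fell (-2.38) and Thbs1, an activator of latent TGF-β, had -0.61 without being called. Spock2, at a low level, rose (2.32), and Tgfbi (0.67) and Fstl1 (-0.46) stayed under 2-fold. The adjusted p of all called genes named here was 5.18e-10 or lower, other than Spock2 at 1.68e-08, Comp at 1.00e-05 and Tnr at 0.0424 (edgeR's quasi-likelihood test).

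The partners of elastin also went in both directions. Of 21 genes, all tested, 9 were called higher and 3 lower, where 12.8% and 10.1% of all genes tested were. Their median log2 fold change was 0.68. Fbn2, the fibrillin of the embryo, rose from 20.0 ± 3.22 to 106 ± 1.12 CPM (SD, n = 3; log2 fold change 2.41), and Fbn2 counts per Fbn1 count went from 0.0115 ± 0.00124 to 0.0578 ± 0.00207. The microfibril-associated genes Mfap5 (2.17) and Mfap4 (1.18) and the fibulin Fbln5 (1.30), which tethers elastin to microfibrils, rose. The other fibulin needed for elastic fibres, Efemp2, had -0.18 and was not called. The cross-linking enzymes were higher without reaching 2-fold, with Lox at 0.41, Loxl1 at 0.69 and Loxl2 at 0.51, and Loxl3 fell (-1.77). Ltbp1, which anchors latent TGF-β to fibronectin and fibrillin, fell from 290 ± 7.48 to 42.7 ± 5.73 CPM (SD, n = 3; log2 fold change -2.76), and the transglutaminase Tgm2 fell as well (-1.37). For the called genes of this list that are named, the adjusted p was 1.41e-10 or lower (edgeR's quasi-likelihood test).

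In the family of decorin, 8 of 12 listed proteoglycans were tested. Of these, 5 were called higher and none lower, where 12.8% and 10.1% of all genes tested were. Their median log2 fold change was 1.38. Aspn (1.85), a relative that also binds collagen, and Ogn (1.63) rose, and Lum, which regulates fibril thickness, had 0.97 and was not called. Dcn, at -0.52, therefore went against every tested gene of this list, all of which had positive values.

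Receptors of these proteins went in both directions. Of 13 tested genes 1 was called higher and 4 lower, where 12.8% and 10.1% of all genes tested were, and their median log2 fold change was -0.36 against -0.01 for all genes. Cd44, a receptor for osteopontin and hyaluronan, fell from 448 ± 31.1 to 74.2 ± 3.63 CPM (SD, n = 3; log2 fold change -2.60). Itgav, the αv subunit of the integrins that bind the RGD motif of osteopontin and fibronectin, fell (-1.78), as did the syndecan Sdc4 (-1.58), a coreceptor for fibronectin, and the integrin subunit Itgb8 (-1.40). Itga8, whose integrin binds tenascin-C and fibronectin, rose (1.57). The fibronectin receptor subunit Itga5 went from 344 to 173 CPM, just short of 2-fold, and Itgb3 (-0.50), Itga9 (-0.36) and Itgb1 (-0.07) were not called. The remaining receptors of the list, named like Itgb8 after their values were seen, had positive values without being called, namely Itgb5 (0.64), Lrp1 (0.53), Itga4 (0.43) and Itgb6 (0.12). The adjusted p of the 5 called receptors was 2.07e-10 or lower (edgeR's quasi-likelihood test).

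Since Ccn1 and Ccn2 are known targets of YAP and TGF-β, other genes of both pathways were listed. Of 19 tested YAP targets (Ccn1 and Ccn2 left out), 3 were called higher and 2 lower, with a median of 0.29. Of all genes tested, 12.8% were called higher and 10.1% lower, so these counts lay near the shares of all genes. Nt5e (2.48), F3 (2.43) and Tgfb2 (1.86) rose, Fjx1 (-1.91) and Axl (-1.80) fell, Amotl2 had 0.80, and Ankrd1, a classical target that is also a cardiomyocyte gene, had -0.28. Ankrd1 stood at 381 CPM in T4 and at 601 and 591 CPM in T5 and T6. Of 15 tested genes of the TGF-β axis, 2 were called higher and 1 lower, with a median of 0.17, likewise near the shares of all genes. Tgfb3 rose from 23.0 ± 1.91 to 172 ± 4.84 CPM (SD, n = 3; log2 fold change 2.90), and Tgfb1 had -0.15. Tgfb2 is in both lists and is counted among the genes called higher in each. The adjusted p of the called genes named was 2.51e-10 or lower (edgeR's quasi-likelihood test).

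**Figure D4:**
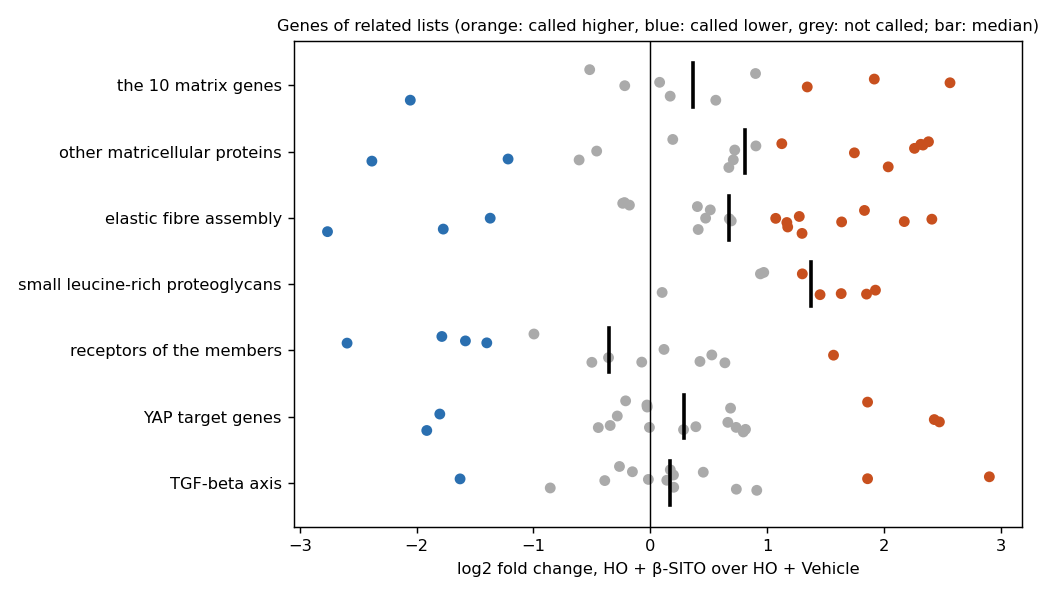
Each point is the log2 fold change of 1 tested gene, HO + β-SITO over HO + Vehicle, for the 10 genes and 6 related lists, and black bars are medians. Proteoglycans of the decorin family all lie above 0 (median 1.38), whereas receptors have a median of -0.36, with Cd44 at the far left.

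Markers of other heart cells moved with the same comparison, in which 12.8% of all genes tested were called higher and 10.1% lower. The summed fibroblast markers ranged from 27443 to 29104 CPM over V1 to V3 and from 44734 to 45653 CPM over T4 to T6, with 3 of 11 genes called higher. Most of this sum was Col3a1, Col1a1 and Col1a2, which were not called (log2 fold changes 0.85, 0.42 and 0.59). The called genes were Dpt (1.84), Gsn (2.08) and Fap (2.54). Tcf21 (0.70), Thy1 (0.89) and Lum (0.97) were higher without being called, while Ddr2 had 0.27 and Pdgfra 0.13. Macrophage markers went from a range of 1314 to 1434 CPM to one of 2868 to 3524 CPM, with 8 of 12 called higher and Fcgr1 lower, while the pan-leukocyte gene Ptprc had a log2 fold change of -0.03. Endothelial markers went from 211 to 243 CPM to 835 to 872 CPM, with 8 of 8 called higher. Smooth muscle and pericyte markers went from 1157 to 1256 CPM to 2052 to 2316 CPM (4 of 8 called higher), and mesothelial markers from 77.9 to 85.4 CPM to 119 to 151 CPM (2 of 6). Cardiomyocyte markers overlapped, with 6867 to 7947 CPM and 6283 to 10882 CPM (3 of 14 called higher). No tested marker was at 0 in all libraries, which the filter on counts made certain. T4 was highest for macrophage and mesothelial markers and lowest of its group for cardiomyocyte markers. Among the 10 genes, T4 was the highest of its group for Spp1, Sparc, Fn1 and Fbn1, and the lowest of its group for Eln, Ccn1, Ccn2 and Tnc. For Ccn1 it was all but level with T5 (299.5 against 299.8 CPM). The position of a single library does not tie a gene to a cell type. The part of these cell types in the levels of the 10 genes was not tested.

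**Figure D5:**
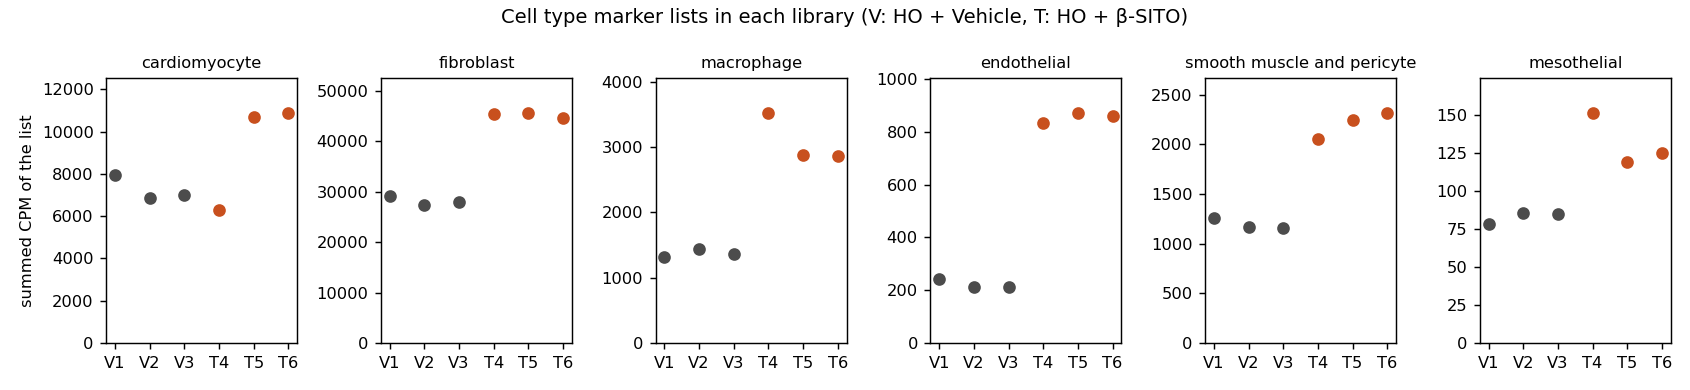
Each panel plots the summed CPM of the markers of 1 cell type (vertical axis, from 0) in each of the 6 libraries. The HO + β-SITO libraries lie above the HO + Vehicle libraries for all lists but that of cardiomyocytes, where T4 (6283 CPM) lies below them and T5 and T6 above.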

How the data were processed

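RNA-seq was performed on 6 libraries of hypoxic NMCMs, and groups were taken from the sample titles. The authors deposited raw counts per gene, made with featureCounts after alignment with HISAT2 to build GRCm39, as the submitters' processing notes name them, with no normalization. Versions, counting options and strand setting were not given in the sources used here. The paper and the labels name different library kits, ABclonal and Illumina. From the deposited counts, genes were filtered with filterByExpr, scaled with TMM and tested with the quasi-likelihood test of edgeR 4.0.16 (R 4.3.3), group being the only term, with Benjamini-Hochberg adjustment over 14799 genes. The biological coefficient of variation was 6.52%. Standard errors were derived from the F statistic. limma 3.58.1 and DESeq2 1.42.0 were alternatives, and the fit was tested on simulated data. Exon lengths were the union of all annotated exons in GENCODE M21, by Ensembl identifier, and promoters came from RefSeq (GRCm38.p6). Gene counts do not resolve splice forms.

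The members and lists were chosen with earlier results of these data known. Besides the 10 genes, partners fixed by role were named, together with up to 2 called genes per direction of each pathway list with a mean of at least 50 counts. The 6 within-library ratios were chosen after values were seen. The values of 1 gene of the TGF-β list that this rule names are not reported here.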

Additional observations from a re-analysis of the deposited data

How the results depend on the processing

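The calls of Ccn2, Ccn1, Eln and Tnc were made under all 15 alternatives, which covered other tests (DESeq2, limma-voom, glmTreat against 2-fold), scalings, filters and the removal of each library. The setting without the fold cutoff is a laxer rule on the same fit, so it had to keep these calls. Under it 6 genes were higher and 3 lower, since Sparc, Spp1, Fn1, Postn and Dcn then pass. The log2 fold change of Fbn1 changed sign to -0.018 without HO + Vehicle replicate 2 (V2), ranged from -0.018 to 0.19 with each library left out, and had an adjusted p under 0.05 without V1 (0.0440), with library size only (0.0209) and with upper quartile scaling (0.0222; edgeR's quasi-likelihood test). Library size only and upper quartile scaling moved the median of all genes by 0.15 and 0.14 (log2), and Spp1 then passed 2-fold. With each library left out, the log2 fold change was 2.53 to 2.65 for Ccn2, 1.90 to 1.96 for Ccn1, 1.33 to 1.41 for Eln and -2.10 to -1.98 for Tnc. No paired analysis was possible because the libraries are numbered 1 to 3 in one group and 4 to 6 in the other, and share no number. Each of the 10 genes had a mean of at least 3476 counts, so that depth limits these values little.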

Other observations

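Each of the 6 within-library ratios differed without overlap between the groups, as 70.5% of all single genes tested did. Each had an exact two-sided permutation p of 0.1, the smallest possible, and an adjusted value of 0.1. Since the ratios were chosen after values were seen, these p-values describe the choice and are not a test. The ratio not given above, Ccn5 to Ccn2 counts, went from 1.22 ± 0.138 to 0.985 ± 0.0569 (SD, n = 3). Its groups nearly touched, with 1.06 in V1 and 1.05 in T4.

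Annotated genes overlap 6 of the 10, namely Spp1, Tnc, Ccn2, Fn1, Fbn1 and Eln, and 5 of these overlapping genes lie on the opposite strand. None held more than 29 counts in a library, against 979 counts or more of the gene they overlap in every library. Ccn6, of the CCN family, held 1 count over all 6 libraries and was not tested.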
